A study of Mus musculus with 30 samples.

Results

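Mouse embryonic stem (ES) cells were allowed to differentiate as floating aggregates for 3 days and were then divided by flow cytometry into cells with and cells without expression of a Sox1 reporter, and the RNA of the Sox1-positive sample was compared with that of the Sox1-negative sample. The comparison takes in 2 of the 10 samples of the series, chosen by their labels alone, and each was hybridised once to each of 3 Affymetrix chips (U74Av2, U74Bv2 and U74Cv2), which gives 6 of the 30 arrays. All samples came from 129-derived ES cells of a Sox1-GFP line, whose green fluorescence follows the activity of Sox1, and the aggregates grew in GMEM with serum replacement (the SFEB culture). RNA was taken from an equal number of sorted cells per the labels' protocol. The labels mention fetal calf serum as an option and do not say for which samples. The other samples were day 1 aggregates with no sort label, E-cadherin-negative and E-cadherin-positive cells of day 2, Sox1-positive cells of day 4 and of day 5, and 3 samples of undifferentiated ES cells sorted as E-cadherin-positive. Only the ES cells were repeated, and nothing in the labels says whether the 3 samples came from separate cultures, so the spread between them may be technical. With 1 sample on each side the day 3 sort allows no test and no p-value. The differences between the 3 ES samples, all sorted the same way, served as the yardstick of what differs between samples of the same label.

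Sox1 encodes a transcription factor of the SOXB1 family that marks neuroectoderm from the time the neural plate forms. As ES cells lose self-renewal they pass through a state like the epiblast of the embryo, in which the factors of the naive ES network fade before the general pluripotency factor Oct4 does, and then take on neural progenitor genes. Along that path the epithelial adhesion genes of the early embryo give way to neural ones, N-cadherin among them. Cells that have not turned on Sox1 in such aggregates can be undifferentiated cells, epiblast-like cells or cells of other lineages.

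The deposited values are linear intensities, 1 per probe set and array. They were analysed as log2(intensity + 16), which understates the differences of dim genes, with 1 probe set for each of 12941 genes. A difference of 1 or more on this scale, about 2-fold, was counted as a call. The median intensity of an array was 177 to 203 on U74Av2, 231 to 278 on U74Bv2 and 194 to 220 on U74Cv2. Precision is limited because each sort has 1 sample, whose 3 arrays are different chips and no replicates. The ratio of 3' to 5' signal of the actin control, a measure of RNA integrity, was 0.993, 1.08 and 1.05 in the Sox1-positive sample and 0.939, 1.14 and 1.03 in the Sox1-negative sample on the 3 chips. In ES 3 it was 1.70, 1.64 and 1.85. ES 1 stood somewhat apart from ES 2 and ES 3. Its levels correlated with theirs at r = 0.937 and 0.924 across genes, and ES 2 and ES 3 with each other at 0.955.

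The gene behind the sort was measured by 1 probe set. Sox1 had an intensity of 308 in Sox1-positive cells, against 241 in Sox1-negative cells and 173, 156 and 138 in the ES samples. The Sox1-positive sample was the highest of these 5, but the difference between the sorts was 0.34 on the log2 scale, against a range of 0.29 among the ES samples. The day 2 samples, which were not sorted on Sox1, had 251 in E-cadherin-negative and 253 in E-cadherin-positive cells. Later Sox1-positive cells had 310 on day 4 and 252 on day 5. The Sox1 transcript on this array therefore separates the 2 sorts little, and the label rests on the reporter. Cdh1, which encodes E-cadherin, had 418 in Sox1-positive cells, against 593 in Sox1-negative cells and 722, 557 and 451 in the ES samples. The difference of -0.49 is smaller than the ES range of 0.66. Pou5f1, which encodes Oct4, had 3139 in Sox1-positive cells, against 7075 in Sox1-negative cells and 7572, 8778 and 6836 in the ES samples. Its level in Sox1-positive cells lay below all ES samples, and the Sox1-negative sample lay within the ES values. The difference between the sorts was -1.17, and -2.46 on a second probe set.

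Between the sorts, 888 genes were higher by 1 or more in Sox1-positive cells, 6.86% of all genes measured, and 949 were lower, 7.33%. The median difference over all genes was -0.02. At 2 or more, 187 genes were higher and 207 lower. Between pairs of ES samples, 953 genes differed by 1 or more for ES 1 and ES 2, 1331 for ES 1 and ES 3, and 677 for ES 2 and ES 3, against 1837 for the sort. Among the called genes 16 higher and 15 lower ones passed the filter on low values only through the day 3 samples themselves. A stricter call also asked that the difference exceed the gene's own range among the 3 ES samples. By it 726 genes were higher (5.61%) and 842 lower (6.51%).

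The excess over the ES pairs was not the same on all chips. On U74Av2 11.2% of genes differed by 1 or more between the sorts, against 1.99% to 5.71% between ES pairs, and on U74Bv2 13.3% did, against 3.11% to 8.30%. On U74Cv2 the sort reached 20.2%, against 13.4% to 20.3% between ES pairs. There it was above ES 1 with ES 2 (14.1%) and ES 2 with ES 3 (13.4%), but not above ES 1 with ES 3. In 5226 genes a further probe set, partly on another chip, measured the same RNA again. Where the first probe set differed by 1 or more between the sorts, the other had the same sign in 77.3% of 555 genes and was itself past 1 the same way in 32.8%. Over all 5226 genes the sign was shared in 62.5%, and between ES pairs, among genes past 1, in 53.1% to 63.3%. Repeat probe sets are no replicates of the sort.

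**Figure D1:**
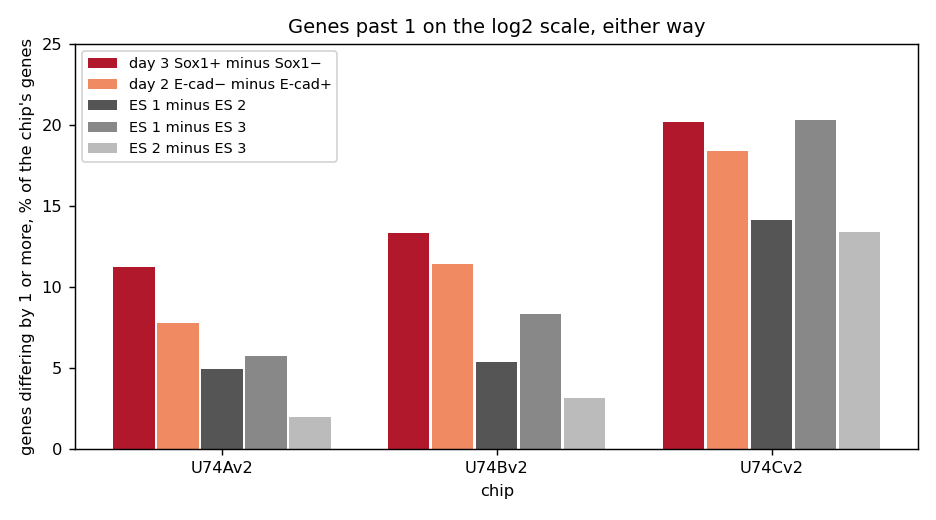
Share of genes (y axis, percent of the genes measured on a chip) that differ by 1 or more on the log2 scale, either way, for the day 3 sort, the day 2 sort and the 3 pairs of ES samples, by chip (x axis). The day 3 sort stands above every ES pair on U74Av2 and U74Bv2, and on U74Cv2 above 2 of the 3 pairs and level with ES 1 against ES 3 (20.2% and 20.3%).

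The 15 largest differences upward, among genes past their ES range and of at least median intensity in the brighter sort, were led by Crabp1, a cytoplasmic retinoic acid-binding protein. Its intensity was 11405 in Sox1-positive cells, against 159 in Sox1-negative cells and 329, 283 and 342 in the ES samples. The Sox1-positive sample stood far above the other 4, and the difference of 6.03 was the largest of the 12941 genes in either direction. Nr2f1, an orphan nuclear receptor of the developing nervous system, had 852 in Sox1-positive cells, against 6.89 in Sox1-negative cells and 8.39, 20.7 and 39.2 in the ES samples. It was near the floor of the scale in the Sox1-negative and ES samples, so its difference of 5.24 depends on the added constant. Ednrb, the type B endothelin receptor, had 2093 in Sox1-positive cells, against 41.3 in Sox1-negative cells and 88.8, 20.5 and 91.2 in the ES samples, a difference of 5.20. Hs3st3b1, a sulfotransferase that modifies heparan sulfate, had 1631 in Sox1-positive cells, against 30.5 in Sox1-negative cells and 337, 441 and 435 in the ES samples. Here the Sox1-negative sample lay below all ES samples, and the difference of 5.15 draws on both sides.

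Of the other 11 genes, 5 encode transcription factors. The Iroquois gene Irx1 differed by 4.99 (2247 in Sox1-positive and 55.4 in Sox1-negative cells), the dachshund-family gene Dach1 by 4.35 (3053 in Sox1-positive and 135 in Sox1-negative cells) and Sox21, a SOXB2 factor of neural progenitors, by 3.92 (3303 in Sox1-positive and 203 in Sox1-negative cells). The hindbrain genes Hoxa3 and Hoxa2 differed by 4.55 and 3.66. Both had a wide ES range, 3.10 and 3.13: Hoxa2 had 23.4, 249 and 329 in ES 1, 2 and 3. Crabp2, the second retinoic acid-binding protein, had 3404 in Sox1-positive and 229 in Sox1-negative cells, a difference of 3.80 against an ES range of 0.25. Pea15a, a small phosphoprotein that binds ERK, had 1252 in Sox1-positive and 26.1 in Sox1-negative cells (4.91). The copine Cpne2 had 1533 in Sox1-positive and 70.1 in Sox1-negative cells (4.17), and the solute carrier family member Slc35f1 3717 in Sox1-positive and 287 in Sox1-negative cells (3.62). The last 2, the microtubule-associated gene Eml1 and the serine protease Prss23, differed by 4.10 and 3.87 but also varied between ES samples, with ranges of 3.14 and 3.15. Prss23 had 256 in Sox1-positive cells, against 2.62 in Sox1-negative cells and 4.84, 169 and 95.5 in the ES samples.

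Downward, Esrrb led. This orphan nuclear receptor of the naive ES network had 68.2 in Sox1-positive cells, against 5190.4 in Sox1-negative cells and 12861, 10661 and 16886 in the ES samples. Sox1-negative cells had already less than any ES sample, and the difference between the sorts was -5.95. Zfp42 (Rex1), a zinc finger gene used as a marker of naive ES cells, had 42.3 in Sox1-positive cells, against 1439.5 in Sox1-negative cells and 4338, 3049 and 3243 in the ES samples, a difference of -4.64. Both samples lay below the ES cells, the Sox1-positive one far more so. Nr0b1 (Dax1), another nuclear receptor family gene of the ES network, had 104 in Sox1-positive cells, against 2329 in Sox1-negative cells and 2807, 2227 and 2217 in the ES samples. Its Sox1-negative level lay within the ES values, and the difference was -4.28. Cldn6, a claudin of early embryonic epithelia, had 129 in Sox1-positive cells, against 3794 in Sox1-negative cells and 787, 1659 and 1166 in the ES samples. For this gene the Sox1-negative sample lay above every ES sample, as it did for the cyclin-family gene Ccno, with 15.7 in Sox1-positive and 819 in Sox1-negative cells and 345, 216 and 116 in ES cells. Both differed by -4.72.

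Among the other 10, the T-box factor Tbx3 (-4.29) and the F-box gene Fbxo15 (-4.25) are also known from the ES network. Fbxo15 had 46.1 in Sox1-positive cells, against 1167 in Sox1-negative cells and 3216, 2938 and 2383 in the ES samples. Dmrt1, a DM-domain factor of germ cells, had 16.9 in Sox1-positive and 465 in Sox1-negative cells (-3.87). The inositol phosphatase Inpp5d had 23.5 in Sox1-positive and 640.0 in Sox1-negative cells (-4.06), and the kinase Sgk1 112 in Sox1-positive and 1985 in Sox1-negative cells (-3.97). The rest were Dusp27 (-4.71), the glycosyltransferase gene B3gnt2 (-4.46), melanoregulin, Mreg (-3.96), the tyrosine kinase Tnk1 (-3.95) and the zinc finger gene Bnc2 (-3.89). In Sox1-negative cells B3gnt2 lay within the ES values, Dmrt1, Bnc2 and Tnk1 above them, and Fbxo15, Inpp5d, Sgk1, Dusp27 and Mreg below. Tbx3 was at 3.25 in Sox1-positive and 362 in Sox1-negative cells, so its difference too depends on the added constant. Tnk1 had the narrowest ES range of the 15, 0.03, with 509, 512 and 502 in the ES samples, 26 in Sox1-positive and 633 in Sox1-negative cells. The second probe set of Inpp5d went the other way, with 139.5 in Sox1-positive and 86.4 in Sox1-negative cells, whereas those of Cldn6, Mreg, B3gnt2, Esrrb and Tbx3 were also lower by more than 1 in Sox1-positive cells. Among the higher genes the second probe sets of Sox21, Hoxa2, Hoxa3 and Irx1 were past 1 as well, and that of Crabp2 (0.71) and another one of Irx1 (0.23) were not. When each gene's probe sets were averaged, Irx1 stood at 2.34, Hoxa3 at 2.99, Crabp2 at 2.26, Tbx3 at -2.78 and Inpp5d at -1.73. With 64 added in place of 16, Prss23 stood at 2.26 and Tbx3 at -2.66.

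**Figure D2:**
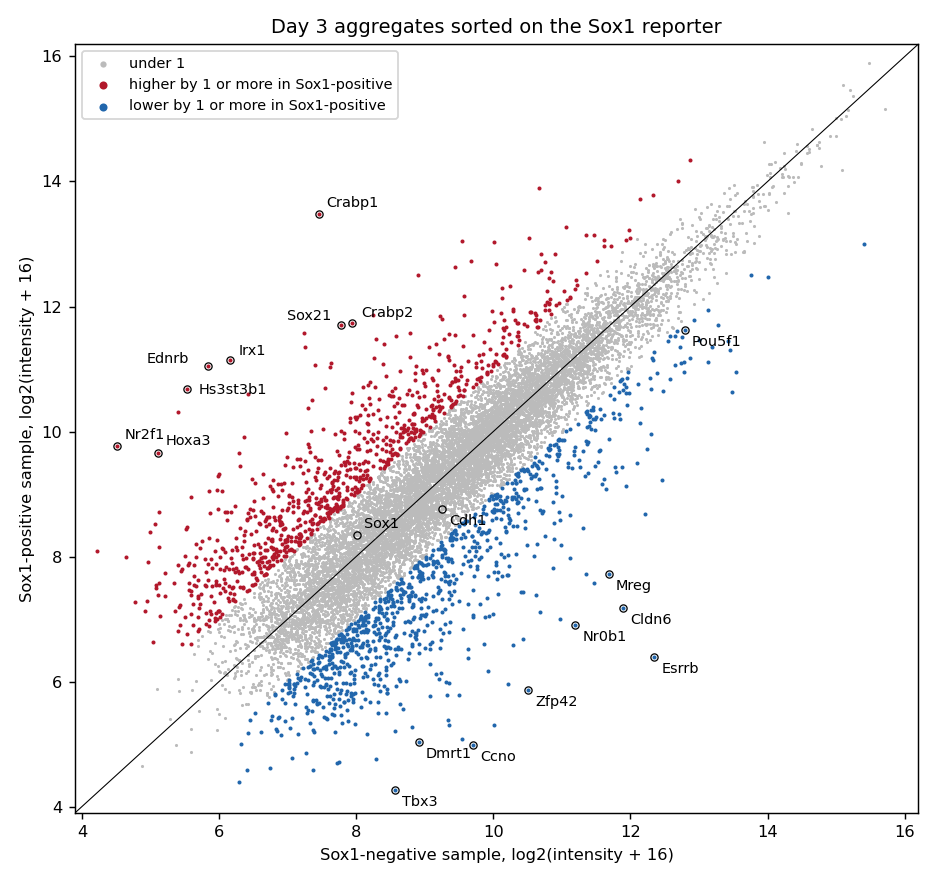
Level of each of the 12941 genes in the Sox1-negative sample (x axis) and the Sox1-positive sample (y axis), both as log2(intensity + 16), with the 888 genes higher by 1 or more in red, the 949 lower in blue and the diagonal as a line. Crabp1 stands farthest above the diagonal and Esrrb farthest below it, and Sox1 itself lies close to the diagonal.

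The proximal promoters of the genes were searched for short motifs, and that of 1 gene from either end of the order is shown. RefSeq windows of GRCm38.p6, from 250 bases before to 50 after a start site, were matched by symbol for 10336 of the 12941 genes. Crabp1 is shown as the gene with the largest difference upward, at chr9:54764498-54764797 on the plus strand, with the letters GGGCGG, the GC box bound by SP factors, in capitals on either strand. Zfp42 is shown as the 1 gene that holds ATGCAAA among the 12 of the 15 largest downward with a window, part of the octamer bound by POU factors such as Oct4, at chr8:43306960-43307259 on the minus strand, with that match in capitals.
Crabp1: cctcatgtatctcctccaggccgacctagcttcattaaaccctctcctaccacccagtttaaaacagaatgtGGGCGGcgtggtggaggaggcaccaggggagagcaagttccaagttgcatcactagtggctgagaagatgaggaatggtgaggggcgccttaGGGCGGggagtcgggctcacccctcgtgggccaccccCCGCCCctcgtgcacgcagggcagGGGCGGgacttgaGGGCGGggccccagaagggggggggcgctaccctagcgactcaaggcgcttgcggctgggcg
Zfp42: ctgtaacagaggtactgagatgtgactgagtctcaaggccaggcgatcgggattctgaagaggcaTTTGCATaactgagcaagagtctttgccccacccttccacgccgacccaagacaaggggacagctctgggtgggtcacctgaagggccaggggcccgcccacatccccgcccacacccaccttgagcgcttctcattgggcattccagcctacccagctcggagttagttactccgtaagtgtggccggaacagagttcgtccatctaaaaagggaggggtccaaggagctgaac
The Crabp1 window held the GC box letters 5 times, and the Zfp42 match, in reverse complement, began at position -185 from the start site. Over all promoters GGGCGG was found in 65.5%, in 67.3% of the 683 higher genes with a window and in 58.9% of the 717 lower ones. ATGCAAA was found in 4.03% of all, 3.51% of the higher and 5.72% of the lower genes. Among the 13 of the 15 largest upward with a window, Nr2f1, Hs3st3b1 and Eml1 held it too. CATTGTT, a SOX site, stood at 2.72%, 3.81% and 2.65%, and AAGGTCA, an extended nuclear receptor half-site of the kind Esrrb binds, at 4.19%, 3.95% and 4.88% of all, higher and lower genes. Both strands were searched, none of the 4 motifs contains another although matches can overlap, and a match is a description of the window alone.

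Genes were next grouped in 34 lists, written from general knowledge but with earlier results of these data known. Their counts are therefore a description and no independent support. Of 727 listed genes 579 were measured. Listed genes given below as examples under 1, and those beyond the 3 largest each way, were chosen after their values were seen. The calls of 14 named genes (Acvr2a, Dusp1, Egr1, Hba-a1, Hhex, Maml1, Ncam1, Nhlh2, Notch4, Pax3, Pmepa1, Sox17, Stra8 and Tet3) fell under 1 in some other processing. With the mean over probe sets Nhlh2 was at 0.39, Maml1 at 0.90, Ncam1 at 0.95 and Notch4 at -0.38, and the called genes Utf1, Tfcp2l1 and Fst stood at -1.48, -1.73 and 1.51. In a sorted pool, fewer cells of a type and less RNA per cell cannot be told apart.

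Neural progenitor genes were the list most often higher in Sox1-positive cells. Of 48 listed, 42 were measured, and 30 were higher by 1 or more (71.4%, against 6.86% of all genes), 0 lower and 12 neither, with a median difference of 1.55 against -0.02 over all genes. Of the 30, 27 also passed their ES range. The list holds Crabp1, Nr2f1 and Ednrb, the leaders above, and Dach1, Sox21 and Crabp2. Sfrp1, a secreted Wnt antagonist, had 5814 in Sox1-positive cells, against 462 in Sox1-negative cells and 532, 488 and 753 in the ES samples, a difference of 3.61. Hmga2, a chromatin-binding protein of proliferating progenitors, had 2069.6 in Sox1-positive and 181 in Sox1-negative cells, and 201, 245 and 287 in ES cells. Pax6, a homeobox factor of the neural tube, had 347 in Sox1-positive cells, against 102 in Sox1-negative cells and 169.5, 175 and 158 in the ES samples. It was above every ES sample in the positive sort and below them in the negative one. The POU factor Pou3f3 differed by 2.69 and Pou3f4 by 2.20, the SOXB1 gene Sox3 by 1.47, the RNA-binding protein gene Msi1 by 1.89 and the intermediate filament gene Nes by 1.09.

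Not every progenitor gene followed. Sox2, shared by ES cells and progenitors, had 4972 in Sox1-positive cells, against 6619.6 in Sox1-negative cells and 6956, 5333 and 6499 in the ES samples, a difference of -0.41. Hes5, a Notch target, was level at 1189.5 in Sox1-positive and 1182 in Sox1-negative cells. Vim was at -0.69 and Sox9 at 0.26. Sox11, at 15249.7 in Sox1-positive and 1612 in Sox1-negative cells, differed by 3.23, but its ES samples had 402, 2916 and 4525, a range of 3.44, so that it did not pass the stricter call. Fabp7 and Nr2f2 likewise were past 1, at 1.97 and 1.80, and within ES ranges of 2.79 and 2.24.

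Regional genes of the neural tube were taken by position. Of 31 mid-hindbrain and caudal genes 22 were measured, 9 were higher in Sox1-positive cells (40.9%, against 6.86% of all genes), 0 lower and 13 neither, with a median of 0.89, and all 9 passed their ES range. Besides Irx1, Hoxa3 and Hoxa2 these were Irx3 (2.69), Hoxb2 (2.61, with 4604 in Sox1-positive and 742 in Sox1-negative cells), Meis2 (1.92), Irx2 (1.79), Hoxb4 (1.79) and Pax5 (1.14). The midbrain genes En1 and En2 differed by -0.20 and 0.90, Gbx2 by 0.84 with an ES range of 3.46, and the hindbrain gene Egr2 by 0.25. Of 20 anterior neural genes only 6 were measured. Zic1, expressed along the dorsal neural tube, was higher by 3.29, with 607 in Sox1-positive and 47.6 in Sox1-negative cells, and Vax1, an eye and ventral forebrain gene, was lower, with 59.4 in Sox1-positive and 331 in Sox1-negative cells. Rax was past 1, at 1.02, within an ES range of 1.65. Of 13 genes of the ventral and dorsal neural tube, 1 was higher, Irx3 (7.69%, near the 6.86% of all genes). Atoh1 (-3.13) and Pax3 (-1.27) were the 2 lower ones (15.4%, against 7.33%). Shh and its floor plate partner Foxa2 had 98.8 in Sox1-positive and 116 in Sox1-negative cells, and 55.3 in Sox1-positive and 52.3 in Sox1-negative cells, with differences of -0.21 and 0.06.

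Most neuronal genes did not reach 1. Of 30 measured 5 were higher (16.7%, against 6.86% of all genes), all past their ES range, 3 lower (10%, against 7.33%), of which 1 was past its ES range, and 22 neither, with a median of 0.22. The RNA-binding protein gene Elavl4 had 415 in Sox1-positive cells, against 47.3 in Sox1-negative cells and 106, 130.4 and 124 in the ES samples. Nefm, a neurofilament subunit, had 803 in Sox1-positive and 144 in Sox1-negative cells, a difference of 2.36, and the bHLH gene Nhlh2 629 in Sox1-positive and 188 in Sox1-negative cells. In contrast Nefh, the heavy neurofilament subunit, was lower (217 in Sox1-positive and 502 in Sox1-negative cells), Nhlh1 and Isl1 were lower but within ES ranges of 1.93 and 2.71, Tubb3 was level at 0.07, and Dcx and Neurod1 were at 0.15 and 0.14. The summed intensity of the 30 genes was 33571 in Sox1-positive cells, 31420 in Sox1-negative cells and 30743 to 33174 in the ES samples.

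Pluripotency genes differed the other way. Of 39 listed 34 were measured, and 23 were lower by 1 or more in Sox1-positive cells (67.6%, against 7.33% of all genes), 0 were higher and 11 were neither, with a median of -1.59. Of the 23, 22 passed their ES range. The exception, Pecam1, had 46.8, 30.3 and 189 in ES cells. The naive network factors Esrrb, Zfp42, Tbx3 and Nr0b1 stood at the bottom with Fbxo15, followed by Klf2 (-3.72), Tcl1 (-3.53) and Tfcp2l1 (-3.31). Nanog, Fgf4 and Dppa5a lay between these and the genes that did not differ. Nanog had 2920.2 in Sox1-positive cells, against 6849 in Sox1-negative cells and 10939.6, 5465 and 6292 in the ES samples, a difference of -1.23, Fgf4 was at -1.14 and Dppa5a at -2.58. Klf4, a Krüppel-like factor of the network, was under all ES samples in both sorts, with 532 in Sox1-positive cells, against 784 in Sox1-negative cells and 3339, 1854 and 2289.6 in the ES samples. Sall4, Lin28a and Stat3 differed by -0.32, 0.15 and -0.01. Summed over the list, the intensity was 54025 in Sox1-positive and 119635 in Sox1-negative cells, and 141857 to 171937 in the ES samples.

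The primed epiblast list held differences both ways. Of 17 genes 8 were lower (47.1%, against 7.33% of all genes), 3 higher (17.6%, against 6.86%) and 6 neither, with a median of -0.999. For 5 of the 8 lower genes the Sox1-negative sample was above all ES samples. Dnmt3b, the de novo DNA methyltransferase, had 2306 in Sox1-positive cells, against 7483 in Sox1-negative cells and 1804, 3075 and 2841 in the ES samples, and the Wnt effector Lef1 had 1548 in Sox1-positive cells, against 3896 in Sox1-negative cells and 1638, 1729 and 1559 in the ES samples. For both, the negative sort was higher than all ES samples and the positive sort was within or slightly below their range. Utf1, a chromatin-associated factor of pluripotent cells, had 579 in Sox1-positive and 5597 in Sox1-negative cells (-3.24) and Foxd3 35.9 in Sox1-positive and 219 in Sox1-negative cells (-2.18). Nodal, the ligand that sustains the epiblast, had 378 in Sox1-positive and 1183 in Sox1-negative cells, and Tcf15 118 in Sox1-positive and 487 in Sox1-negative cells. The 3 higher genes are also expressed in neuroectoderm. Cd24a, a cell surface glycoprotein, had 6125 in Sox1-positive cells, against 1386 in Sox1-negative cells and 752, 1074 and 1469.8 in the ES samples, Sall2 differed by 1.86 and Sox3 by 1.47.

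Germ cell and preimplantation genes were lower in 8 of 12 cases (66.7%, against 7.33% of all genes), 7 of them past their ES range. None was higher, and the median was -1.32. Dppa3 (Stella), a maternal factor also seen in ES cells, had 29 in Sox1-positive cells, against 330.2 in Sox1-negative cells and 546, 194 and 126 in the ES samples, a difference of -2.95. Rhox5, an X-linked homeobox gene, had 192 in Sox1-positive and 1160.1 in Sox1-negative cells, and Ifitm3 806 in Sox1-positive and 2951 in Sox1-negative cells. Ddx4 and Dazl, markers of the committed germ line, were at -0.28 and -0.43. Among chromatin and DNA methylation genes 7 of 24 were lower (29.2%, against 7.33% of all genes), 6 of them past their ES range, and 3 higher (12.5%, against 6.86%). Tet1, an enzyme that oxidises methylcytosine, had 542 in Sox1-positive cells, against 3897 in Sox1-negative cells and 5651, 7490.1 and 9280.2 in the ES samples. Tet3 had 476 in Sox1-positive and 84 in Sox1-negative cells, so the pair differed in opposite directions, by -2.81 and 2.30, and Tet2 was at -1.55. Dnmt3l, the cofactor of the de novo enzymes, was lower, with 1594 in Sox1-positive and 5663 in Sox1-negative cells, as was Ezh1, with 78.4 in Sox1-positive and 435 in Sox1-negative cells. The Polycomb genes Bmi1 and Ezh2 differed by 1.53 and 0.57, and the maintenance enzyme Dnmt1 was level at 0.10. With the mean over all its probe sets Tet3 was at 1.00 in place of 2.30.

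**Figure D3:**
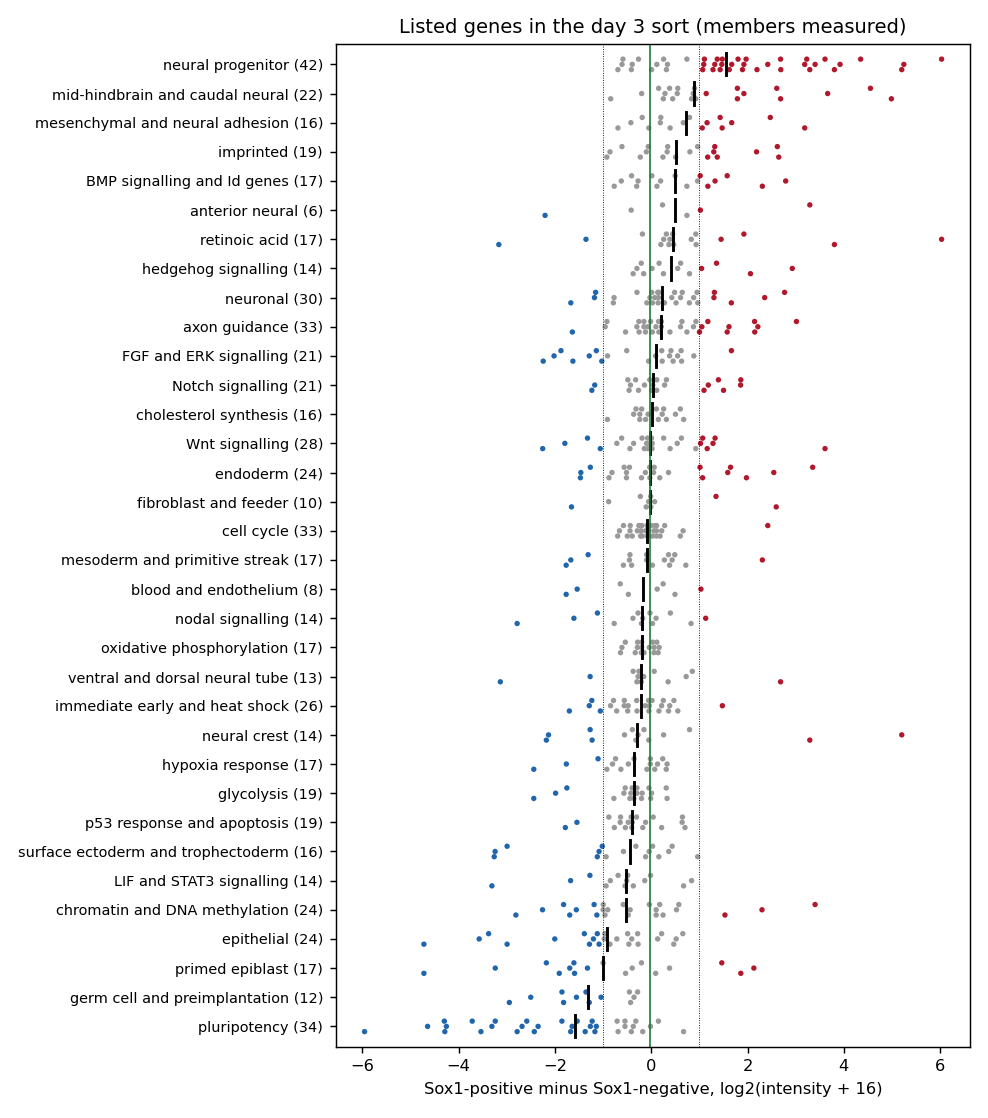
Difference between the sorts (x axis, Sox1-positive minus Sox1-negative, log2(intensity + 16)) of every measured gene of the 34 lists (rows, number measured in brackets, ordered by median), with red points at 1 or more, blue at -1 or less, a black bar at each list's median and a green line at the median of all genes (-0.02). The neural progenitor list has the highest median (1.55) and the pluripotency list the lowest.

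Epithelial genes were lower in Sox1-positive cells in 10 of 24 cases (41.7%, against 7.33% of all genes), 8 of them past their ES range. The list had 0 higher, 14 neither and a median of -0.91. Cldn4, a tight junction claudin, had 122 in Sox1-positive cells, against 1626 in Sox1-negative cells and 1147, 1262 and 1229.7 in the ES samples. Esrp1, a splicing regulator of epithelia, had 47.2 in Sox1-positive cells, against 639.6 in Sox1-negative cells and 229, 160.5 and 131 in the ES samples, and was above every ES sample in the negative sort. Grhl2, a transcription factor of epithelial identity, was lower (157 in Sox1-positive and 1361 in Sox1-negative cells), as were plakoglobin, Jup (334 in Sox1-positive and 1387 in Sox1-negative cells), and P-cadherin, Cdh3 (463 in Sox1-positive and 1083 in Sox1-negative cells). Epcam differed by 0.47, Tjp1 by 0.13 and Cdh1, as above, by -0.49. The keratins Krt8 and Krt18 were past 1, at -1.08 and -1.12, but within their ES ranges of 1.91 and 1.54. The 16 surface ectoderm and trophectoderm genes share Grhl2 and the keratins with this list. Of the 16, 6 were lower (37.5%, against 7.33% of all genes), 4 of them past their ES range, and 0 higher. The summed intensity of the 16 was 4785 in Sox1-positive and 8624 in Sox1-negative cells, and 11785 to 12523 in the ES samples. Tfap2c had 81 in Sox1-positive cells, against 913 in Sox1-negative cells and 2275, 1576 and 1755 in the ES samples, and Grhl3 151 in Sox1-positive cells, against 1559 in Sox1-negative cells and 5277, 4884 and 4685 in the ES samples. Both were below all ES samples in both sorts and lowest in the positive one.

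Of 16 mesenchymal and neural adhesion genes 7 were higher (43.8%, against 6.86% of all genes), 0 lower and 9 neither, with a median of 0.73. Of the 7, 6 encode cadherins or immunoglobulin-family adhesion molecules. N-cadherin, Cdh2, had 2840.2 in Sox1-positive cells, against 298 in Sox1-negative cells and 176, 276 and 279 in the ES samples, a difference of 3.19. R-cadherin, Cdh4, had 367 in Sox1-positive and 53 in Sox1-negative cells, and Ncam1 891 in Sox1-positive and 269 in Sox1-negative cells. Cdh11, Nrcam and Cdh6 differed by 1.47, 1.43 and 1.06. Zeb2, a repressor of epithelial genes, was at 1.16, with an ES range of 2.45. Fn1, Snai2 and Itgb5, genes of mesenchymal cells, were at -0.42, -0.05 and 0.19.

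Markers of other cell types that the aggregates could hold were under 1 in most cases. Of 17 mesoderm and primitive streak genes 1 was higher (5.88%, against 6.86% of all genes), the activin-binding protein gene Fst (2.31). Another 3 were lower (17.6%, against 7.33%), the receptor Kdr (74.7 in Sox1-positive and 292 in Sox1-negative cells) and, within their ES ranges, Isl1 and Mesp2. The summed intensity of the 17 genes was 7364 in Sox1-positive and 6150 in Sox1-negative cells, and 6399 to 6659 in the ES samples. Fst alone had 1170 in Sox1-positive and 224 in Sox1-negative cells, and the median difference of the list was -0.10. The endoderm list held more differences. Of 24 genes 7 were higher (29.2%, against 6.86% of all genes), 6 of them past their ES range, and 3 lower (12.5%, against 7.33%), with a median of -0.03. Among the higher ones were the chemokine receptor gene Cxcr4 (238 in Sox1-positive cells, against 8.85 in Sox1-negative cells and 55.1, 39.6 and 13.1 in the ES samples), Plat, which encodes tissue plasminogen activator (810.0 in Sox1-positive and 194 in Sox1-negative cells), and the collagen gene Col4a1 (1069 in Sox1-positive and 330.5 in Sox1-negative cells). The lower ones were the laminin gene Lamc1 (-1.46) and, at low intensity, Sox17 (33.9 in Sox1-positive and 122 in Sox1-negative cells, but 0.77 in place of -1.47 with 64 added, when another probe set was the brightest) and Hhex (49.4 in Sox1-positive and 141 in Sox1-negative cells). Foxa2, Afp and Ttr, defining endoderm genes, differed by 0.06, -0.03 and -0.51. The endoderm sum was 14693 in Sox1-positive and 14079 in Sox1-negative cells, and 13025 to 16750 in ES cells.

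Of 14 neural crest genes 2 were higher (14.3%, against 6.86% of all genes), Ednrb and Zic1, both also progenitor genes. The 4 lower ones (28.6%, against 7.33%) included Erbb3, with 91 in Sox1-positive and 453 in Sox1-negative cells. Sox10, Snai2 and Tfap2a were at -0.39, -0.05 and -0.32. The sum of the list was 9290 in Sox1-positive and 7818 in Sox1-negative cells, and 7430 to 9345 in ES cells. Ednrb alone made up 2093 of it in Sox1-positive and 41.3 in Sox1-negative cells, and the median difference of the list was -0.295. Of 10 fibroblast genes 2 were past 1 upward (20%, against 6.86% of all genes) and 1 lower (10%, against 7.33%). Tagln (1764 in Sox1-positive and 279 in Sox1-negative cells) and Acta2 were the higher ones, within ES ranges of 3.31 and 3.43. Thy1 was lower (36.3 in Sox1-positive and 149 in Sox1-negative cells). The sum of the 10 genes was 5659 in Sox1-positive, 4926 in Sox1-negative and 3418 to 8879 in ES cells, and their median difference was -0.03. Of 8 blood and endothelium genes 1 was higher (12.5%, against 6.86% of all genes), Hba-a1 (1.03), and 2 lower (25%, against 7.33%). Their sum was 1214 in Sox1-positive and 1494 in Sox1-negative cells, against 958 to 1302 in ES cells. In Sox1-negative cells the sums of endoderm, neural crest and fibroblast genes thus lay within the ES values, that of blood and endothelium above them and those of mesoderm and surface ectoderm below. These sums weight each gene by its intensity, so a single gene can move them. No measured marker read 0 in either sort, but probe sets of low mean intensity had been dropped, so this cannot show whether such cells were present. The part of such cells in the differences above was not tested.

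Signalling genes were taken by role. In the retinoic acid list 4 of 17 genes were higher (23.5%, against 6.86% of all genes) and 2 lower (11.8%, against 7.33%). The binding proteins Crabp1 and Crabp2, the receptor Rxra (1.45) and the target Meis2 were higher. The receptor Rarg had 49.9 in Sox1-positive cells, against 574 in Sox1-negative cells and 773, 972 and 917 in the ES samples, a difference of -3.16, whereas Rara and Rarb were at 0.20 and 0.83. Aldh1a2, which makes retinoic acid, was at 0.26, and Cyp26a1, which degrades it, at 0.37. In the BMP list 6 of 17 were higher (35.3%, against 6.86% of all genes) and 0 lower, with a median of 0.50. Id2 and Id1, inhibitors of bHLH factors and targets of BMP signals, had 3029 in Sox1-positive and 424 in Sox1-negative cells, and 1499 in Sox1-positive and 492 in Sox1-negative cells. Id2 ranged from 259 to 854 among the ES samples. Id3 was level at 0.02. The signal transducers Smad1 and Smad5 differed by 1.18 and 1.33, and the ligands Bmp4 and Bmp7 by -0.41 and -0.30.

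In the Wnt list 6 of 28 were higher (21.4%, against 6.86% of all genes) and 4 lower (14.3%, against 7.33%). The secreted antagonists Sfrp1 and Sfrp2 differed by 3.61 and 1.28. Notum, an extracellular Wnt inhibitor, had 931 in Sox1-positive cells, against 3266 in Sox1-negative cells and 4387, 3676 and 3890.3 in the ES samples. Among the frizzled receptors Fzd5 was lower, with 199 in Sox1-positive and 1010.3 in Sox1-negative cells, and Fzd3 higher by 1.16. The feedback target Axin2 was level, with 903 in Sox1-positive and 899 in Sox1-negative cells. In the Notch list 6 of 21 were higher (28.6%, against 6.86% of all genes) and 2 lower (9.52%, near the 7.33% of all genes). The feedback inhibitor Nrarp had 1340.5 in Sox1-positive cells, against 358 in Sox1-negative cells and 262, 171 and 210.0 in the ES samples, the coactivator Maml1 differed by 1.86, and the ligand Jag1 by 1.40. Notch3 had 2085 in Sox1-positive and 726 in Sox1-negative cells, with Dtx1 (-1.23) and Notch4 (-1.17) lower. The targets Hes1 and Hes5 were at -0.26 and 0.01.

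In the FGF and ERK list 7 of 21 were lower (33.3%, against 7.33% of all genes) and 1 higher (4.76%, against 6.86%), although the median was 0.09. The ETS factor Etv5 had 2204 in Sox1-positive cells, against 8967 in Sox1-negative cells and 7470.3, 6677 and 7336 in the ES samples. The feedback inhibitors Spry1 and Spry4 differed by -1.87 and -1.03, and Spry2 by -0.51. The ligands Fgf17 and Fgf4 were lower, at -2.24 and -1.14, the receptors Fgfr1 and Fgfr2 were at 0.63 and 0.45, and Dusp6 was at 0.62. In the nodal list 3 of 14 were lower (21.4%, against 7.33% of all genes), Tdgf1, Nodal and Pmepa1 (-1.12). For Pmepa1 this rests on a dim probe set, with 43.7 in Sox1-positive and 113 in Sox1-negative cells. Its other probe sets went the other way, at 0.33 and 0.48, and the mean over its probe sets was -0.10. The receptor Acvr2a (1.13) was the 1 higher gene (7.14%, near the 6.86% of all genes). The co-receptor Tdgf1 (Cripto) had 62.1 in Sox1-positive cells, against 522 in Sox1-negative cells and 567, 451 and 500.2 in the ES samples. The ligand antagonists Lefty1 and Lefty2 did not separate the sorts, with 36270.1 in Sox1-positive and 36908 in Sox1-negative cells, and 1436 in Sox1-positive and 1872 in Sox1-negative cells, both above the ES samples. In the LIF and STAT3 list 3 of 14 were lower (21.4%, against 7.33% of all genes), Tfcp2l1, Klf5 (-1.67) and Socs2 (-1.27), and 0 higher.

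Of 14 hedgehog pathway genes 4 were higher (28.6%, against 6.86% of all genes) and 0 lower. These were the co-receptors Boc (2.93) and Gas1 (2.06), the effector Gli3 (8038 in Sox1-positive and 3129.9 in Sox1-negative cells) and Smo (1.05). The direct targets Gli1 and Ptch1 were at -0.30 and -0.37. Of 33 axon guidance genes 9 were higher (27.3%, against 6.86% of all genes) and 1 lower (3.03%, against 7.33%). Most of the 9 were ephrins and Eph receptors. Efna5 had 7347 in Sox1-positive and 1643 in Sox1-negative cells, Epha4 521 in Sox1-positive and 105 in Sox1-negative cells and Efnb1 3492 in Sox1-positive and 1129 in Sox1-negative cells. Epha7 differed by 2.21. The guidance receptor Robo2 differed by 3.02 with an ES range of 1.83, and Sema4d was lower, with 268 in Sox1-positive and 868 in Sox1-negative cells.

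Imprinted genes were higher in 7 of 19 cases (36.8%, against 6.86% of all genes) and lower in 0 (against 7.33%). Mest had 6571 in Sox1-positive cells, against 1035 in Sox1-negative cells and 766, 1010.1 and 1088 in the ES samples, Nnat 3665 in Sox1-positive and 583 in Sox1-negative cells and Ndn 2110.1 in Sox1-positive and 451 in Sox1-negative cells. Igf2 was at 0.96 and Cdkn1c at -0.06, with ES ranges of 2.73 and 2.36. Glycolysis genes were lower in 3 of 19 cases (15.8%, against 7.33% of all genes), with a median of -0.36. Pdk1, a pyruvate dehydrogenase kinase, had 636 in Sox1-positive cells, against 3518 in Sox1-negative cells and 2180.4, 1959 and 2279.7 in the ES samples. Ldhb had 409.8 in Sox1-positive and 1669.6 in Sox1-negative cells, and Pfkp 149 in Sox1-positive and 538 in Sox1-negative cells. Hypoxia-response genes, which share Pdk1, were lower in 3 of 17 (17.6%, against 7.33% of all genes) and higher in 0. Bnip3 had 158 in Sox1-positive and 576 in Sox1-negative cells, and 255, 193 and 302 in ES cells. The Sox1-negative sample was above the ES cells in all 3 glycolysis genes and in Bnip3. Immediate early and heat shock genes were lower in 4 of 26 (15.4%, against 7.33% of all genes) and higher in 1 (3.85%, against 6.86%). Egr1 and Zfp36 differed by -1.29 and -1.23. Dusp1 was at -1.70, but at 0.27 with the mean over its probe sets. Hspa1a had 3521 in Sox1-positive cells, against 1254 in Sox1-negative cells and 1948, 168 and 244 in the ES samples, so both sorts and ES 1 stood above ES 2 and ES 3 in this heat shock gene. In the p53 list 2 of 19 were lower (10.5%, against 7.33% of all genes), Sesn2 (-1.78) and Mcl1 (-1.54), and 0 higher (against 6.86%).

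Genes of the cell cycle hardly separated the sorts. Of 33 measured 1 was higher (3.03%, against 6.86% of all genes), 0 were lower (against 7.33%) and 32 neither, with a median of -0.08. The higher one was the D-type cyclin Ccnd2 (735 in Sox1-positive cells, against 124 in Sox1-negative cells and 23.8, 102 and 80 in the ES samples). Mki67 and Pcna were at 0.11 and 0.06. None of 16 cholesterol synthesis and 17 oxidative phosphorylation genes was past 1, against 6.86% higher and 7.33% lower of all genes. Their medians were 0.02 and -0.20.

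The ES samples place each side of the differences. Of the 888 higher genes, 78.8% lay above all 3 ES samples in Sox1-positive cells, against 31.5% of all genes, and 42.5% lay below all 3 in Sox1-negative cells, against 26.1%. Of the 949 lower genes, 84.2% lay below the ES samples in Sox1-positive cells, against 32.8% of all genes, and 44.0% lay above them in Sox1-negative cells, against 27.4%. These shares were taken on the genes the difference itself picked, so they describe the calls and support nothing. Across genes the levels of the Sox1-positive sample correlated with the ES samples at r = 0.848 to 0.871, and those of the Sox1-negative sample at 0.921 to 0.932. The 2 sorts correlated with each other at 0.885.

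Samples outside the comparison show the same genes before and after day 3. The day 2 sort, E-cadherin-negative against E-cadherin-positive cells, shares no array with the day 3 sort. In it 902 genes were higher by 1 or more (6.97%) and 618 lower (4.78%). Of the 888 genes higher on day 3, 41.2% were higher by 1 or more in E-cadherin-negative cells and 3.83% lower. Of the 949 lower on day 3, 28.0% were lower and 5.37% higher. The differences of the 2 sorts correlated at r = 0.462 (Spearman's rho 0.402) across the 12941 genes, which are not independent of each other. Crabp1 had 6659 in E-cadherin-negative and 136 in E-cadherin-positive cells, and Ednrb 889 and 13.8. Esrrb had 695 in E-cadherin-negative and 4243 in E-cadherin-positive cells, and Cldn6 176 and 1660.5.

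Day 4 and day 5 Sox1-positive cells, set against the ES mean, share no array with the day 3 sort either, although they share the ES samples with each other. On day 4, 1063 genes were higher by 1 or more (8.21%) and 941 lower (7.27%), and on day 5, 1216 (9.4%) and 1138 (8.79%). Of the 888 genes higher in the day 3 sort, 51.2% were higher on day 4 and 51.9% on day 5. Of the 949 lower, 42.9% were lower on day 4 and 45.6% on day 5. The differences correlated with those of the day 3 sort at r = 0.596 and 0.581 across genes (Spearman's rho 0.519 and 0.503). Nr2f1 had 852 on day 3, 1539.9 on day 4 and 4099 on day 5 in Sox1-positive cells, and Ednrb 2093, 3568 and 9061. Crabp1 had 11405, 9898 and 5075 on the same days. Pou5f1 had 3139, 2203 and 575, and Esrrb, 68.2, 139.9 and 100.3, was already low on day 3. With 1 sample a day these orders have no error.

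**Figure D4:**
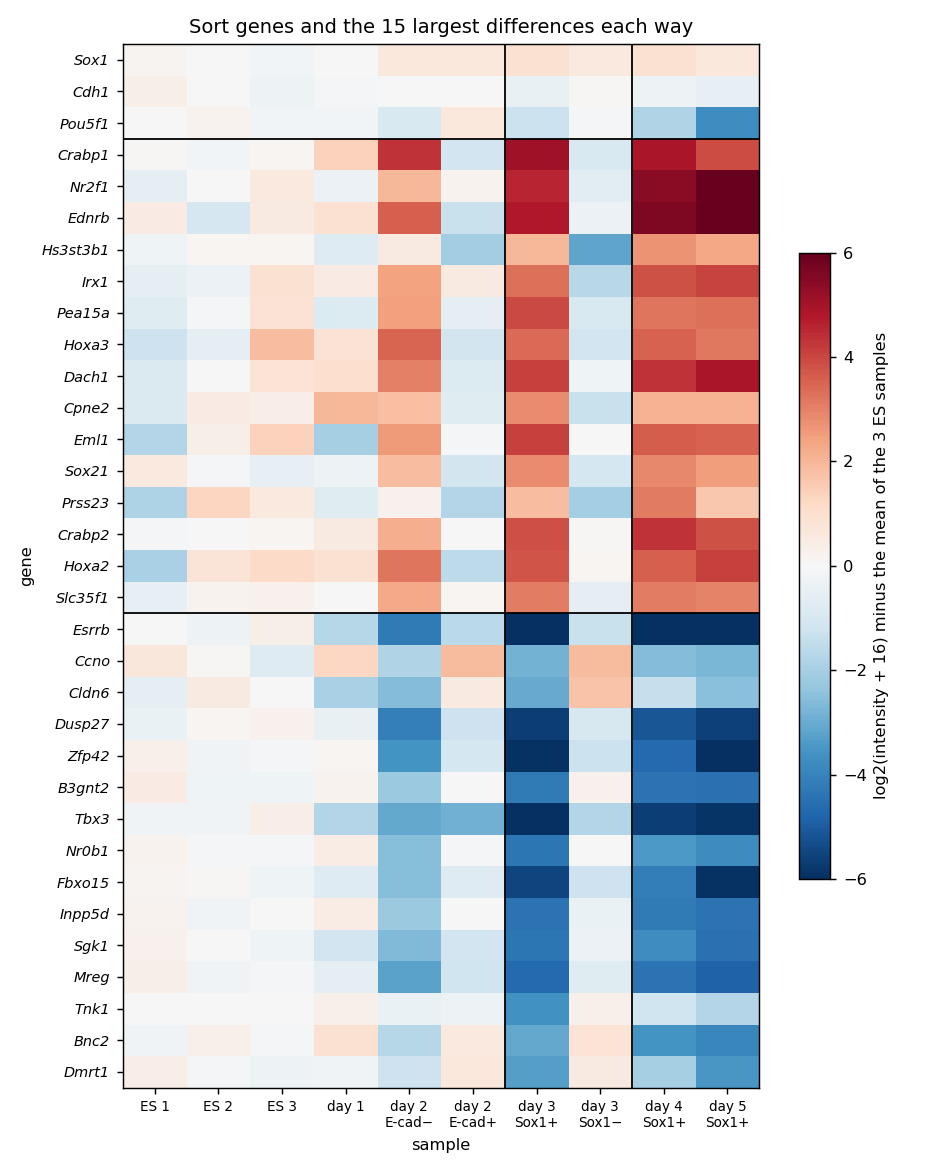
Level of the sort genes and of the 15 largest differences each way (rows) in the 10 samples (columns), as log2(intensity + 16) minus the mean of the 3 ES samples, red above and blue below, with the scale ending at 6. The day 3 Sox1-positive column is close to the day 4 and day 5 columns, with Crabp1 at 11405, 9898 and 5075, and the Sox1-negative column is closer to the ES columns.

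Some genes differed in 1 of the 2 sorts more than in the other. Neuronal genes had a median difference of 1.26 in the day 2 sort and 0.22 in the day 3 sort. Nhlh2, at 629 in Sox1-positive and 188 in Sox1-negative cells on day 3, had 4781 in E-cadherin-negative and 182 in E-cadherin-positive cells on day 2, and Dcx, level on day 3, had 357 and 61.4. The reverse held for Tbx3, with 139.8 in E-cadherin-negative and 161 in E-cadherin-positive cells, and for Tnk1, with 382 and 409. On day 2 their differences were -0.18 and -0.10. Of the 1324 genes past 1 and past their ES range on day 3 at median intensity or more, 394 (29.8%) differed by less than 0.5 on day 2, against 65.2% of all genes. Of the 394, 172 were higher and 222 lower on day 3. Lrrc2 (21 in Sox1-positive and 362 in Sox1-negative cells on day 3), Robo2, Dusp9, an ERK phosphatase (136 in Sox1-positive and 881 in Sox1-negative cells on day 3), and the Wnt antagonist Frzb (334 in Sox1-positive and 63.3 in Sox1-negative cells) were among them, all but Robo2 chosen after their values were seen. Past 1 in opposite ways, 34 genes were higher on day 3 and lower on day 2 (3.83% of the 888, against 4.78% of all genes). The other way round there were 51 (5.37% of the 949, against 6.97% of all genes). Both shares are near those of all genes. Past 1 the same way in both sorts, 366 were higher (41.2%, against 6.97%) and 266 lower (28%, against 4.78%). The difference between the sorts was not tested.

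**Figure D5:**
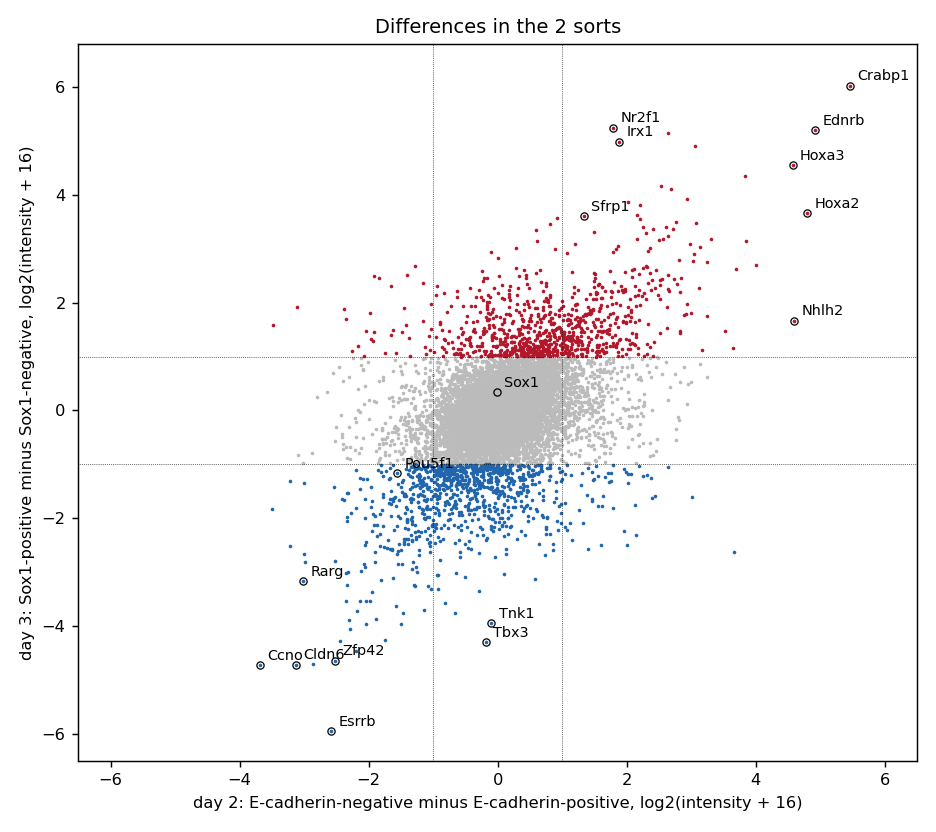
Difference of each of 12941 genes in the day 2 sort (x axis, E-cadherin-negative minus E-cadherin-positive) and in the day 3 sort (y axis, Sox1-positive minus Sox1-negative), both on the log2(intensity + 16) scale, with the genes past 1 on day 3 in red and blue and dotted lines at 1 and -1. Crabp1 and Ednrb lie far out in both, Tbx3 and Tnk1 in the day 3 sort, and Nhlh2 farther in the day 2 sort.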

How the data were processed

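RNA of 10 samples was hybridised to 3 chips each. The deposited values are linear intensities per probe set, and their trimmed mean (2% from each end) is near 500 on every array, the mark of a scaling by the authors before deposit. The software behind the intensities is not given in the sources used here. All value columns were matched to a sample.

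Control probe sets (198 of 36899) were set aside. Probe sets were named from the platform annotation, with 29131 naming 1 gene, 724 several and 6846 none. Probe sets whose mean intensity over the 10 samples was under the 30th percentile of their chip were dropped (78.6, 117 and 102 on the 3 chips), and the probe set with the highest mean log2(intensity + 16) stood for each of 12941 genes. Differences of log2(intensity + 16) were compared with the range of the same gene over the ES samples, and a difference of 1 was the call. No test was possible with 1 sample a side. The counting was tested on simulated data with the same spread for all probe sets, whereas the spread between the real ES samples differed by chip. That run checks the counting alone.

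Named genes are Sox1, Cdh1 and Pou5f1, the 15 largest differences each way among genes past 1, past their ES range and with the brighter sort at the chip's median or above, and in each list the 3 largest each way past 1 and past the ES range. The comparison, the lists and the rules were chosen with earlier results of these data known. Listed genes outside the rule were chosen after their values were seen. The alternatives were other scalings, pseudocounts of 1 and 64, other filters, the mean over probe sets, a threshold of 2 and ES samples left out. Python 3.11.15 was used with numpy 2.4.6, pandas 2.3.3, scipy 1.17.1 and matplotlib 3.10.9.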

Additional observations from a re-analysis of the deposited data

How the results depend on the processing

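The count of genes higher by 1 or more (888), lower (949), and of those also past their ES range (726 higher and 842 lower) stayed within 1.5 times under quantile normalization, 75th percentile scaling, pseudocounts of 1 and 64, no filter and the mean over probe sets. With only probe sets above the 60th percentile the 4 counts were 504, 475, 420 and 443, since fewer genes were tested, and at a threshold of 2 they were 187, 207, 172 and 204. Leaving out each ES sample in turn gave 769 to 843 higher and 881 to 909 lower genes past the range of the other ES samples. Sox17 reversed to 0.77 with a pseudocount of 64, when another probe set was the brightest, and Dusp1 to 0.27 with the mean over probe sets. Of 121 named genes 14 fell under 1 in some setting. The share of calls that were higher ran from 45.2% to 51.5% and was 48.3% as reported. Leaving out a day 3 sample was not possible, since each sort has 1. No paired analysis was possible because only the ES cells have more than 1 sample. The arrays give no depth, and genes near the added constant have understated differences.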
